A study of Mus musculus with 121 samples.

Results

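Gonadal adipose tissue, the fat pad beside the gonads, was compared by RNA sequencing between mice heterozygous (HET) and wild type (WT) for the gene that the labels call PEP. What is known of the study identifies it as Pepd. The comparison used 30 of the 121 samples of a series that also covers liver, knockout (KO) mice and other diets. On standard chow there were 8 HET and 4 WT mice. On a high-fat diet labelled HFD 45 percent (HFD) there were 10 HET and 8 WT mice. All were C57BL/6 mice that ate their diet for 18 weeks from 8 weeks of age. The labels give neither the type of allele nor the sex of the mice. The libraries were selected on genotype, tissue and diet with 1 exception chosen by a measured value: an 11th mouse labelled HET on HFD was left out because its Pepd level was that of the KO mice. The difference in Pepd between HET and WT is therefore first given as a description, and its test is quoted with this mouse put back.

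Pepd encodes prolidase, a cytosolic peptidase that releases proline or hydroxyproline from the end of dipeptides. Such dipeptides arise mainly from the breakdown of collagen, which is rich in both amino acids and is a main protein of the matrix around fat cells. Lack of prolidase causes an inherited disorder of skin and immunity in people, whereas carriers with 1 working copy are generally regarded as unaffected.

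Total counts ran from 4832477 to 6699887 in the 30 libraries (median 5992975). The fat cell markers fixed for the check of tissue identity were present in every library, with the hormone gene Adipoq at 1591 to 5577 CPM (counts scaled to library size) and the fatty acid carrier Fabp4 at 7474 to 18580 CPM. RNA of neighbouring tissues was also present in some libraries. Summed epididymis markers were over 5 times the median in 9 libraries (5 HET, 4 WT), and hepatocyte markers in 2 (HFD WT 6 and HFD HET 2). Skeletal muscle markers passed this level in 1 library, HFD WT 2, and testis markers were over 5 times the median and at least 100 CPM in 5 (chow HET 2 and 5, chow WT 2 and 3, HFD WT 2). Results that these libraries touch are given below with and without them. In bulk tissue, fewer cells of a type and less RNA per cell cannot be told apart.

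Pepd (ENSMUSG00000063931, GRCm38 chromosome 7, 34912379 to 35044708, plus strand) was lower in HET fat on both diets. On chow the 4 WT libraries stood at 58.5, 86.0, 88.7 and 101 CPM, and the 8 HET libraries ran from 45.3 to 69.1 CPM with a median of 57.5. The ranges overlapped only through chow WT 2, the WT library with the least Pepd. On HFD the 8 WT libraries ran from 93.8 to 114 CPM (median 103) and the 10 HET libraries from 59.8 to 73.9 CPM (median 65.2), so that every HET library lay below every WT library. Group means were 83.6 ± 18.0 CPM in WT and 57.8 ± 7.22 in HET on chow (SD, n = 4 and 8), and 103 ± 9.31 and 65.5 ± 4.26 on HFD (SD, n = 8 and 10).

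HET fat thus held 69.2% of the WT mean on chow and 63.6% on HFD. With the diets pooled and diet as a blocking factor, the log2 fold change was -0.61 ± 0.06 (SE), a 1.53-fold lower level with a 95% interval of -0.74 to -0.48. Each of the 18 HET libraries lay below the WT mean of its diet. With the left-out mouse put back the log2 fold change was -0.67 (edgeR quasi-likelihood test, adjusted p = 0.0094). In a fit of all 6 gonadal groups, KO included, it was no longer called (edgeR adjusted p = 0.22). The difference between the effect on HFD and that on chow was -0.12 on the log2 scale (edgeR p = 0.37). The chow libraries with the least Pepd in each genotype, WT 2 and HET 2, were also those with the most summed epididymis markers, at 20766 and 17653 CPM. Without all libraries with epididymis, muscle or liver RNA the pooled log2 fold change was -0.66, and without those with testis RNA it was -0.63.

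**Figure D1:**
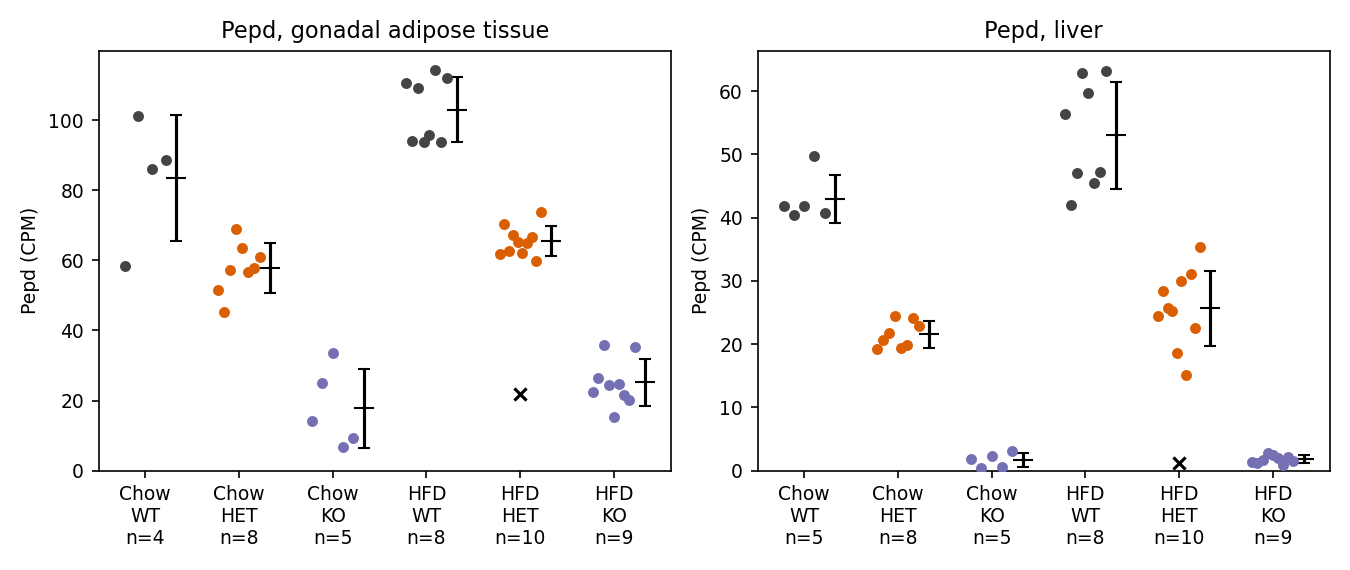
Pepd level in CPM (y axis, from 0) in every library of gonadal adipose tissue (left) and liver (right), by diet and genotype (x axis). Points are libraries, the bar beside each group is its mean ± SD, and the cross is the mouse labelled HET that was left out. HET means lie between those of WT and KO in both tissues, chow HET and chow WT fat overlap at 58.5 to 69.1 CPM, and the cross lies at 21.7 CPM in fat and 1.22 CPM in liver, within the KO range of each.

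The HET level in fat lay between those of WT and KO mice. KO fat stood at 17.8 ± 11.3 CPM on chow (n = 5) and 25.2 ± 6.69 on HFD (n = 9), from 6.70 to 35.8 CPM over both diets, and the 18 HET libraries from 45.3 to 73.9 CPM. That these ranges do not overlap was fixed by the choice of libraries, since the left-out mouse, at 21.7 CPM, lies inside the KO range. Measured from the KO mean up to the WT mean, the HET mean stood 60.8% of the way on chow and 51.8% on HFD. In liver the same fractions were 48.2% and 46.6%, with HET livers at 50.2% of the WT mean on chow (21.5 ± 2.07 against 42.9 ± 3.82 CPM) and 48.4% on HFD (25.6 ± 5.98 against 52.98 ± 8.51). KO liver held 3.84% of the WT level on chow and 3.35% on HFD, against 21.3% and 24.5% in fat. The 18 HET livers (15.1 to 35.3 CPM) lay below the 13 WT livers (40.5 to 63.2 CPM), and the liver of the left-out mouse, at 1.22 CPM, lay lower still. The tissues come partly from the same mice, and their difference was not tested.

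Among the other peptidases that cut beside proline, none was called. The 11 others were the oligopeptidases Prep and Prepl, the dipeptidyl peptidases Dpp4, Dpp7, Dpp8, Dpp9 and Fap, the aminopeptidases Xpnpep1, Xpnpep2 and Xpnpep3, and the lysosomal carboxypeptidase Prcp. Their log2 fold changes ran from -0.23 for Dpp4 (95% interval -0.67 to 0.21, p = 0.30) to 0.06 for Xpnpep2 (-0.29 to 0.42). Xpnpep1, the cytosolic enzyme that removes an amino acid in front of proline, had an interval of -0.12 to 0.10, and Prep one of -0.13 to 0.11. On a per-length scale Pepd was the highest of the family in WT fat, at 31.1 CPM per kb of exon, followed by Dpp7 at 13.6 and Prcp at 12.9. In HET fat Pepd stood at 19.98 CPM per kb and remained above Dpp7 (13.6) and Prcp (12.7).

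Over all 14235 genes tested, Pepd was the only gene called at an adjusted p under 0.05 with the diets pooled (0.00702% of genes). Pepd was also the only gene called on HFD (0.00702%, log2 -0.65, edgeR adjusted p = 7.8e-05). Both calls used libraries selected on Pepd and are given as a description. With the left-out mouse put back, Pepd was again the only gene called with the diets pooled (edgeR adjusted p = 0.0094). On chow 0 genes were called (0%) by edgeR, with 606 at an unadjusted p under 0.05, and Pepd was at log2 -0.53 there (edgeR adjusted p = 0.18). DESeq2 called 6 on chow: Pepd (DESeq2 adjusted p = 0.0073), Rab3b, Galnt3, Pdzk1ip1 and Cdcp1 (lower) and Ccdc153 (higher). The chow comparison depended on single libraries: without WT 2 Pepd alone was called (log2 -0.67, edgeR adjusted p = 0.00075), and without HET 2, 290 genes were called, 285 of them lower in HET. On HFD Pepd lost its call when the left-out mouse was put back. HET against WT on HFD then gave 0 called genes by edgeR, with 866 at an unadjusted p under 0.05, and DESeq2 was not run on that set.

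In the pooled comparison 442 genes (3.11%) had an unadjusted p under 0.05, 38 higher and 404 lower in HET. The share was 4.26% on chow and 4.4% on HFD. After Pepd the smallest adjusted p of the pooled comparison was 0.59. DESeq2 called 7 genes, Pepd and Spint4, Spint5, Klf17, Nrsn1, Gm6040 (lower) and En2 (higher). Its log2 fold changes were -8.37 for Spint4, -8.45 for Spint5, -20.7 for Klf17, -23.1 for Nrsn1, -24.4 for Gm6040 and 3.94 for En2. Spint4 is on the list of vas deferens and seminal vesicle markers. Sums of that list reached 12771 CPM in chow WT 2 and 9358 in chow HET 2, with medians of 2.76 in WT and 2.22 in HET. These 7 were chosen after their values were seen. Of the vas deferens and seminal vesicle list only 1 gene, Crisp1, passed edgeR's filter on low counts, so Spint4 could not be called there. With its filter edgeR called none of the other 6, and for any gene the filter removed this was fixed in advance. Without the filter it called En2 of these 6.

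**Figure D2:**
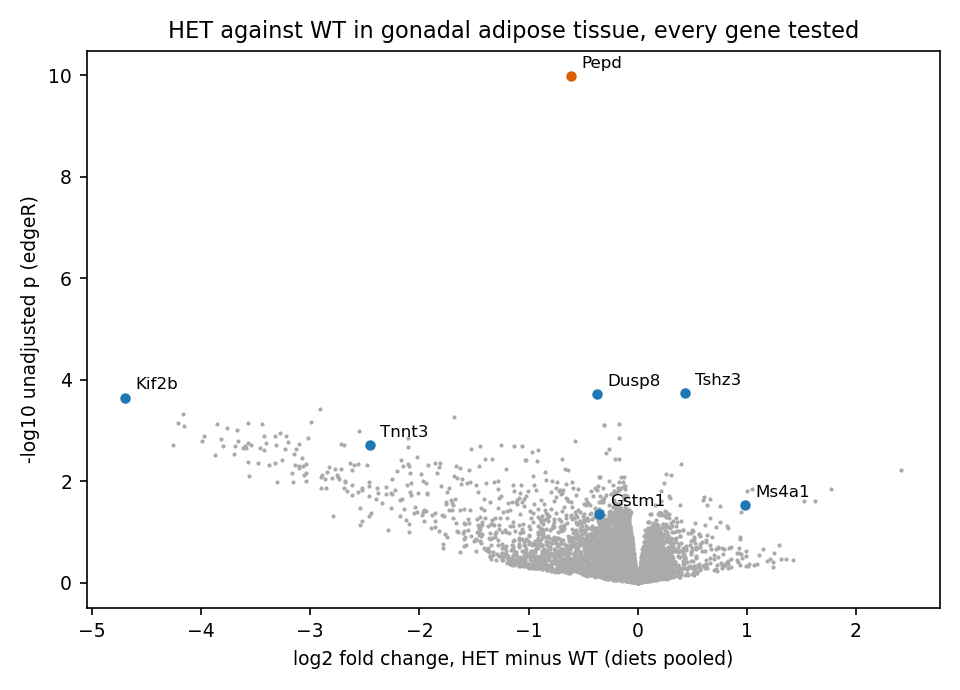
Each point is 1 of 14235 genes: log2 fold change of HET against WT with diets pooled (x axis) against -log10 of the unadjusted edgeR p (y axis). Pepd stands apart at the top at a log2 fold change of -0.61, and the labelled genes below it did not pass the test.

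The same libraries separated the diets widely. In the same fit 6308 genes (44.3%) differed between HFD and chow, 2777 higher and 3531 lower on HFD. KO fat against WT fat, in a fit of all 6 gonadal groups, gave 1493 called genes of 14517 (10.3%), 846 higher and 647 lower. No KO library was left out for RNA of other tissues. Summed adipocyte identity markers were at 26064, 13407 and 25541 CPM in chow KO 1, 4 and 5, against 54165 CPM in chow WT 2, the lowest chow WT library. Their summed lymph node markers were at 541, 1663 and 956 CPM, against at most 60.0 CPM in chow WT. The part of this in the KO values of fat given here was not tested. HET liver against WT liver, on chow and HFD pooled, gave 1 of 10934 (0.00915%), again Pepd (log2 -1.02). This liver comparison also leaves out the mouse chosen by its Pepd level. With it put back Pepd was again the 1 gene called, at log2 -1.08 (edgeR adjusted p = 5.5e-05). The comparisons of HET and of KO with WT fat share their WT libraries.

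The intervals show what size of change the data could hold. With diets pooled, the 95% interval of the fold change lay within 1.5-fold either way for 10959 genes (77%) and within 2-fold for 12349 (86.8%). On chow, with 4 WT libraries, these shares were 56.8% and 76.4%, and on HFD 69.1% and 83.7%. For the remaining genes the interval reached past 2-fold in at least 1 direction.

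The named protein-coding gene with the next smallest p was Tshz3, which encodes a zinc finger transcription factor (GRCm38 chromosome 7, 36698118 to 36773553). On chow the 4 WT libraries stood at 5.48, 5.58, 6.20 and 6.88 CPM and the 8 HET libraries ran from 5.65 to 9.83 CPM (median 8.71), 7 of them above every WT library. On HFD the WT libraries ran from 5.44 to 10.3 CPM (median 7.03) and the HET libraries from 8.14 to 12.4 CPM (median 10.1), with overlap. Tshz3 was ranked by p in these same libraries, and the share of all genes tested that separate as far was not counted. The pooled log2 fold change was 0.43 ± 0.10 and did not pass (edgeR p = 0.00018, adjusted p = 0.59). KO fat had 16.9 ± 6.85 CPM on chow (n = 5) and 11.1 ± 2.45 on HFD (n = 9). The KO effect with diets pooled was log2 1.01 ± 0.14 (edgeR adjusted p = 2.8e-05). The highest KO values, 27.2 and 20.4 CPM, were those of chow KO 4 and 5, libraries low in adipocyte markers. Tshz3 lies 1653410 bases from Pepd. Of 85 tested genes within 5 Mb of Pepd, Pepd itself left out, 4 had an unadjusted p under 0.05 (4.71%), against 437 of 14149 other genes (3.09%).

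Dusp8, a phosphatase that removes phosphates from MAP kinases, came next. On chow the WT libraries had 18.1 to 23.5 CPM (mean 20.4 ± 2.26, n = 4) and the 8 HET libraries 10.4 to 17.9 CPM (14.96 ± 3.00), with no overlap. On HFD the WT libraries had 10.9 to 19.2 CPM (15.6 ± 2.94, n = 8) and the 10 HET libraries 11.1 to 14.7 CPM (12.4 ± 1.24), with overlap. Dusp8 too was ranked by p in these libraries, and the share of all genes without overlap on chow was not counted. The pooled log2 fold change was -0.37 ± 0.09 (edgeR adjusted p = 0.59). Against the same WT libraries, KO fat had a log2 fold change of -0.52 (edgeR adjusted p = 0.0074).

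**Figure D3:**
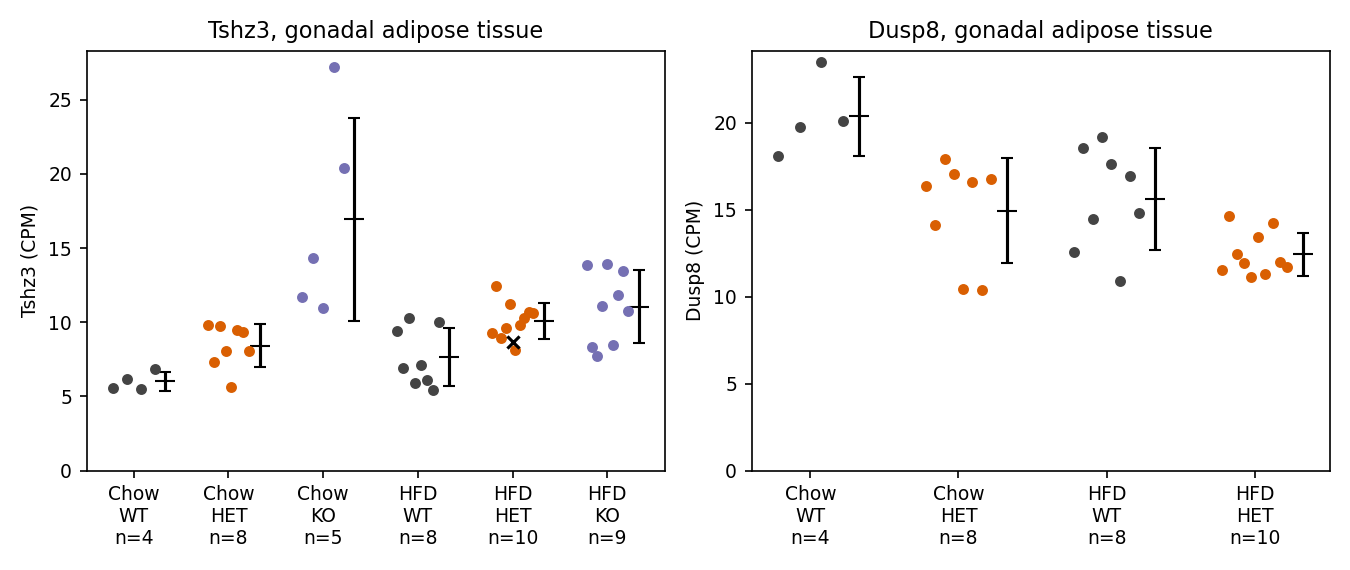
Tshz3 (left) and Dusp8 (right) level in CPM (y axis, from 0) in each library by diet and genotype (x axis), with mean ± SD bars. The cross in the left panel marks the left-out mouse, and KO is shown for Tshz3. Tshz3 is higher and Dusp8 lower in most HET libraries, and neither passed the test.

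Of the 19 named protein-coding genes with the smallest p after Pepd, 18 were lower in HET and Tshz3 was higher. Of these, 14 had over 50% of their summed CPM in the 5 libraries with testis RNA. They included Kif2b, a kinesin (log2 -4.69, edgeR p = 0.00023), the testis-specific kinase gene Tssk1 (-2.91), the sperm head gene Actl7a (-4.17) and the sperm tail genes Akap3 (-3.27) and Ropn1 (-3.77). Kif2b was at 0 in all 10 HFD HET libraries and reached 49.9 CPM in chow WT 3, 10.8 in HFD WT 2, 4.08 in chow HET 2 and 3.37 in chow WT 2. The others of the 14 were Mroh7, Mroh4, Selenov, Aldoart2, Tex33, Spata21, Gykl1, Spesp1 and Cntnap2. Apart from Tshz3 and Dusp8, 3 genes without this pattern remained. They were Cmtr2, an enzyme of messenger RNA cap methylation (log2 -0.31 ± 0.08), Lrrc28 (-0.31 ± 0.08) and the zinc finger gene Zscan21 (-0.17 ± 0.05). For Lrrc28 all 10 HFD HET libraries (10.98 to 13.8 CPM) lay just below all 8 HFD WT libraries (13.8 to 20.2 CPM), while the groups overlapped on chow. The gene was picked for its small p in these libraries, and the share of all genes that separate so on HFD was not counted.

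Among all genes at an unadjusted p under 0.05, the same pattern held for 196 of the 404 that were lower (48.5%), for 0 of the 38 that were higher and for 499 of all 14235 genes tested (3.51%). Summed testis markers reached 403 CPM in chow WT 3, 304 in chow WT 2, 308 in HFD WT 2, 354 in chow HET 2 and 224 in chow HET 5, while the other 25 libraries had 20.01 CPM or less. Of 9 testis markers tested, 0 were called by edgeR and 0 by DESeq2, and 5 had an unadjusted p under 0.05, all lower in HET (Ldhc log2 -4.25, Akap4 -3.30). Of 11 skeletal muscle markers tested, 0 were called by either tool and 8 were lower at that level, led by the troponins Tnnt3 (-2.46) and Tnni2 (-2.15). Tnnt3 stood at 210 CPM in HFD WT 2 and at 0.882 to 3.804 CPM in every other library. Without HFD WT 2 its log2 fold change was 0.06.

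**Figure D4:**
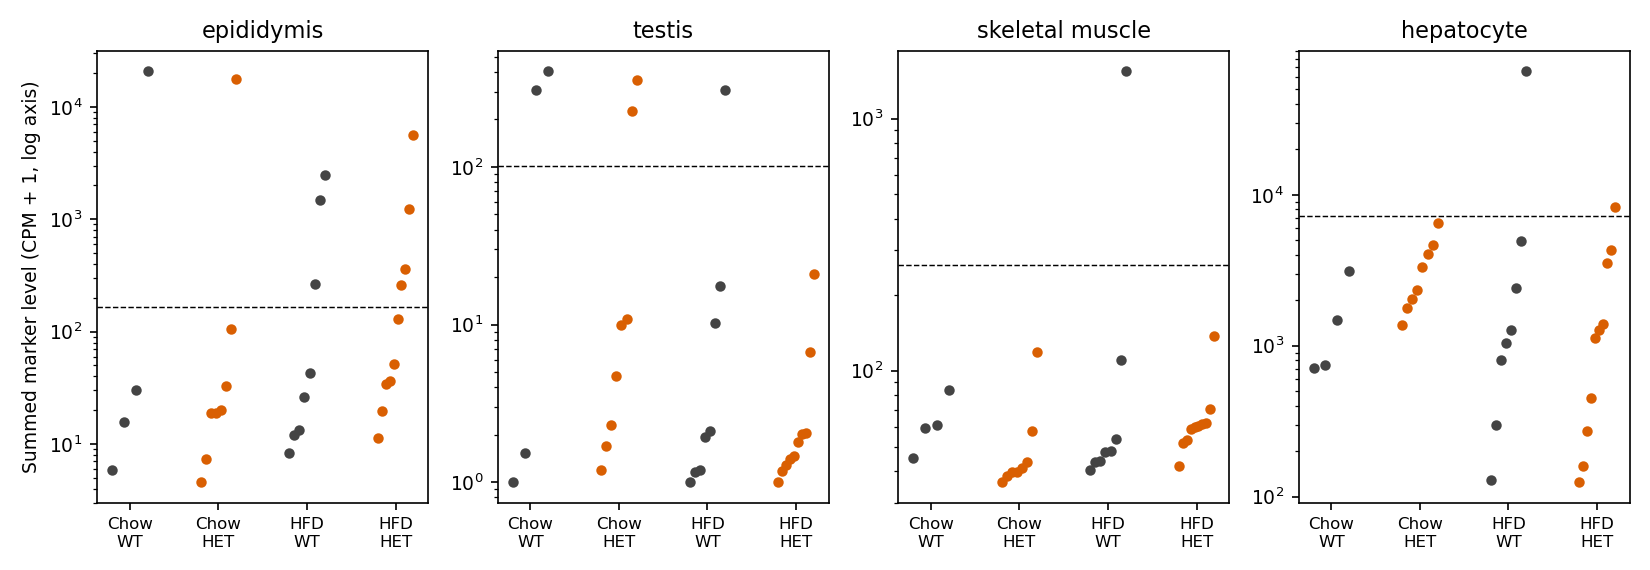
Summed markers of epididymis, testis, skeletal muscle and hepatocytes in each of the 30 libraries (CPM + 1, log y axis) by diet and genotype (x axis). Points are libraries, grey for WT and orange for HET, and dashed lines are the levels above which a library was left out in the alternative fits. Libraries of both genotypes lie above the lines for epididymis, testis and hepatocytes, and HFD WT 2 alone for muscle.

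Summed levels of the 9 other-tissue lists did not differ between HET and WT beyond their spread. In an exact permutation of the genotype labels within diets (21660210 relabellings, two-sided) the smallest p was 0.30, for lymph node markers (log2 difference 0.40), and each adjusted p was 0.98. The testis difference was -1.05 (p = 0.32) and the epididymis difference 0.07 (p = 0.96). Liver RNA was uneven within diets. Alb, the serum albumin gene, ran from 4.40 to 34290 CPM in HFD WT, the highest being HFD WT 6, and from 8.79 to 4062 CPM in HFD HET. On chow it ran from 27.3 to 65.4 CPM in WT and from 24.5 to 2337 CPM in HET.

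With the diets pooled, gene groups of fat tissue were centred near the median over all genes, which was -0.03. Over all 14235 genes, 4987 were above zero and 9248 below, the background for each count of signs with the diets pooled. The 16 tested genes of adipocyte identity had a median log2 fold change of 0.00, 8 above zero and 8 below, and 14 of their intervals lay within 1.5-fold. Their lowest value was that of Cfd, the adipokine adipsin (-0.39, 95% interval -1.25 to 0.46). The 26 genes of oxidative phosphorylation had a median of -0.06, all but 1 below zero, with the respiratory chain subunit gene Cox7a2 at -0.11 (-0.25 to 0.03). Of 20 lipogenesis genes 15 were below zero (median -0.08, Mlxipl, a carbohydrate-sensing transcription factor, at -0.23), as were 16 of 19 fatty acid oxidation genes (median -0.04, Acaa2 -0.25). The 13 genes of lipolysis and adrenergic signalling had a median of -0.01, and the 19 of insulin signalling and glucose use one of -0.0024. In none of these lists was a gene called by edgeR or DESeq2, and 0 had an unadjusted p under 0.05.

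Collagens and other matrix genes, the source of prolidase substrates, were slightly above the median over all genes. Of 32 tested, 28 were above zero, with a median of 0.11 and a range of -0.29 to 0.23, and 27 intervals lay within 1.5-fold. The largest by p was elastin (Eln, 0.21, p = 0.17). Of 18 genes that modify collagen 14 were above zero (median 0.05, the chaperone gene Fkbp10 0.19), and 17 of 19 progenitor and fibroblast markers were (median 0.09, Cd55 0.18). The 17 matrix proteases and inhibitors had a median of 0.01, with the macrophage elastase gene Mmp12 at -0.63 (95% interval -1.51 to 0.25) and Adamts1 at -0.30. Of 13 genes of proline synthesis, breakdown and transport the median was -0.05, with the proline-degrading enzyme gene Prodh at -0.32 (-0.79 to 0.14). edgeR and DESeq2 called 0 genes in these lists, and 0 had an unadjusted p under 0.05. Without the libraries with epididymis, muscle or liver RNA, 17 of 32 matrix genes were above zero on chow and 9 of 32 on HFD, against 25 and 24 with all libraries, so the direction of this list moved with those libraries.

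Among immune cells, the B cell list had the largest median. Of its 10 genes 8 were above zero with a median of 0.54, and 2 had an unadjusted p under 0.05: the complement receptor gene Cr2 (log2 1.00 ± 0.39, edgeR p = 0.016, adjusted p = 1.00) and Ms4a1, which encodes CD20 (0.98 ± 0.43, edgeR p = 0.030). The antibody genes Jchain (-0.33) and Ighm (-0.24) were below zero. The summed level of the B cell list had means of 2322 CPM in HET and 2393 in WT on chow. On HFD the means were 2640 in HET and 3286 in WT, where HFD WT 2 reached 12326. The HFD medians were 2252 in HET and 1962 in WT. Ms4a1 ran from 0.48 to 11.5 CPM in HFD WT (median 3.44) and from 0.89 to 30.1 CPM in HFD HET (median 7.44), and on chow from 1.06 to 4.73 in WT and from 2.05 to 7.69 in HET. Only 3 of 10 HFD HET libraries exceeded every WT library. Cr2 and Ms4a1 are also on the lymph node list, whose sums reached 207 CPM in HFD HET 9 against at most 90.1 CPM in WT. The part of lymph node RNA in the result was not tested. By diet, the median of the 10 genes was 0.02 on chow and 0.94 on HFD, where 2 of the 10 had an unadjusted p under 0.05. On HFD it was 1.39 (4 of 10) without the libraries with epididymis, muscle or liver RNA and 1.31 (8 of 10) without those with testis RNA, and on chow it was then below zero, at -0.22 and -0.14. Over all genes tested in these HFD comparisons, 567 of 13623 and 767 of 14317 had an unadjusted p under 0.05. The 24 macrophage genes had a median of -0.04 (Aif1 -0.37) and the 20 T and NK cell genes one of 0.05 (Foxp3, which marks regulatory T cells, 0.31). The 23 interferon-stimulated genes had a median of -0.04, with 21 intervals within 1.5-fold.

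Of the stress programmes, the list of NRF2 targets, genes of the antioxidant response, lay lowest. All 13 tested were below zero (median -0.35), as were 9248 of all 14235 genes. Of the 13, 1 had an unadjusted p under 0.05, the glutathione transferase gene Gstm1 (-0.35 ± 0.17, edgeR p = 0.045). Gstm1 ran from 277 to 1054 CPM in HFD WT and from 305 to 604 CPM in HFD HET. The highest of all these, HFD WT 6, is the library with the most hepatocyte RNA. Gsta4, a second transferase gene, was at -0.60 (p = 0.057) and came to 0.09 without the libraries with epididymis, muscle or liver RNA, where the log2 fold change of Gstm1 was -0.04. On chow the median of the NRF2 list was -0.25 with all libraries, -0.10 without that set (5 of 13 above zero) and 0.04 without those with testis RNA (7 of 13). On HFD it was -0.28, -0.21 and -0.25. The stress-induced gene Ddit4, 1 of 12 glucocorticoid response genes, was at 0.26 (edgeR p = 0.049), with 6 of 10 HFD HET libraries above every HFD WT library (log2 0.47 on HFD). On chow its value was -0.08, with a median of 36.5 CPM in HET and 43.4 in WT. The 16 p53 targets (median -0.02) and the 19 genes of the unfolded protein response (median -0.07) each had every interval within 1.5-fold.

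With all libraries, the medians of most metabolic lists and of both macrophage lists had opposite signs on the 2 diets. On chow 16 of 16 adipocyte identity genes were above zero (median 0.26), and on HFD 0 of 16 were (-0.14). Of these 16 genes, 0 had an unadjusted p under 0.05 on either diet, against 606 on chow and 627 on HFD of all 14235. Oxidative phosphorylation genes were above zero in 25 of 26 on chow (0.17) and in 0 of 26 on HFD (-0.19), and lipogenesis genes in 18 of 20 (0.25) and 0 of 20 (-0.27). Thermogenic genes had medians of 0.28 and -0.32. Macrophage genes went the other way, with 6 of 24 above zero on chow (-0.29) and 21 of 24 on HFD (0.11). The lipid-associated macrophage list had medians of -0.41 and 0.10. Without the libraries with epididymis, muscle or liver RNA they were -0.59 and -0.02, no longer of opposite sign. Over all genes 6502 of 14235 were above zero on chow and 5784 on HFD. With all libraries, the 15 hepatocyte markers tested had medians of 3.78 on chow (15 of 15 above zero) and -2.19 on HFD (0 of 15). Without the libraries with epididymis, muscle or liver RNA the hepatocyte medians were 4.53 (15 of 15) and 0.34 (14 of 15). Without those with testis RNA they were 4.70 (15 of 15) and -2.31 (0 of 15). Adipocyte identity, oxidative phosphorylation and lipogenesis had chow medians of 0.25, 0.20 and 0.35 without epididymis, muscle or liver libraries. Their HFD medians were then -0.22 (0 of 16 above zero), -0.12 (0 of 26) and -0.26 (4 of 20). The part of liver RNA in the medians of the metabolic lists was not tested beyond leaving libraries out.

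For the difference between the diets itself 0 genes were called (0%) by edgeR, 1 by DESeq2, and 919 had an unadjusted p under 0.05 (6.46%). Of the 26 oxidative phosphorylation genes 18 were among these 919, but 5 (19.2%) without the libraries with epididymis, muscle or liver RNA and 4 (15.4%) without those with testis RNA, where the shares over all genes were 7.76% and 3.63%. The summed levels overlapped: oxidative phosphorylation ran from 6091 to 7020 CPM in chow WT and from 6161 to 8747 in chow HET, and from 5101 to 7746 in HFD WT and from 4419 to 6444 in HFD HET. Of the 16 adipocyte identity genes 0 were among the 919. Their medians kept opposite signs without the first set of libraries (0.25 and -0.22) and without the second (0.18 and -0.16). Thermogenic genes did not, with medians of 0.37 and 0.05 without the first set. The genes of a list share their libraries and are not independent of each other.

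**Figure D5:**
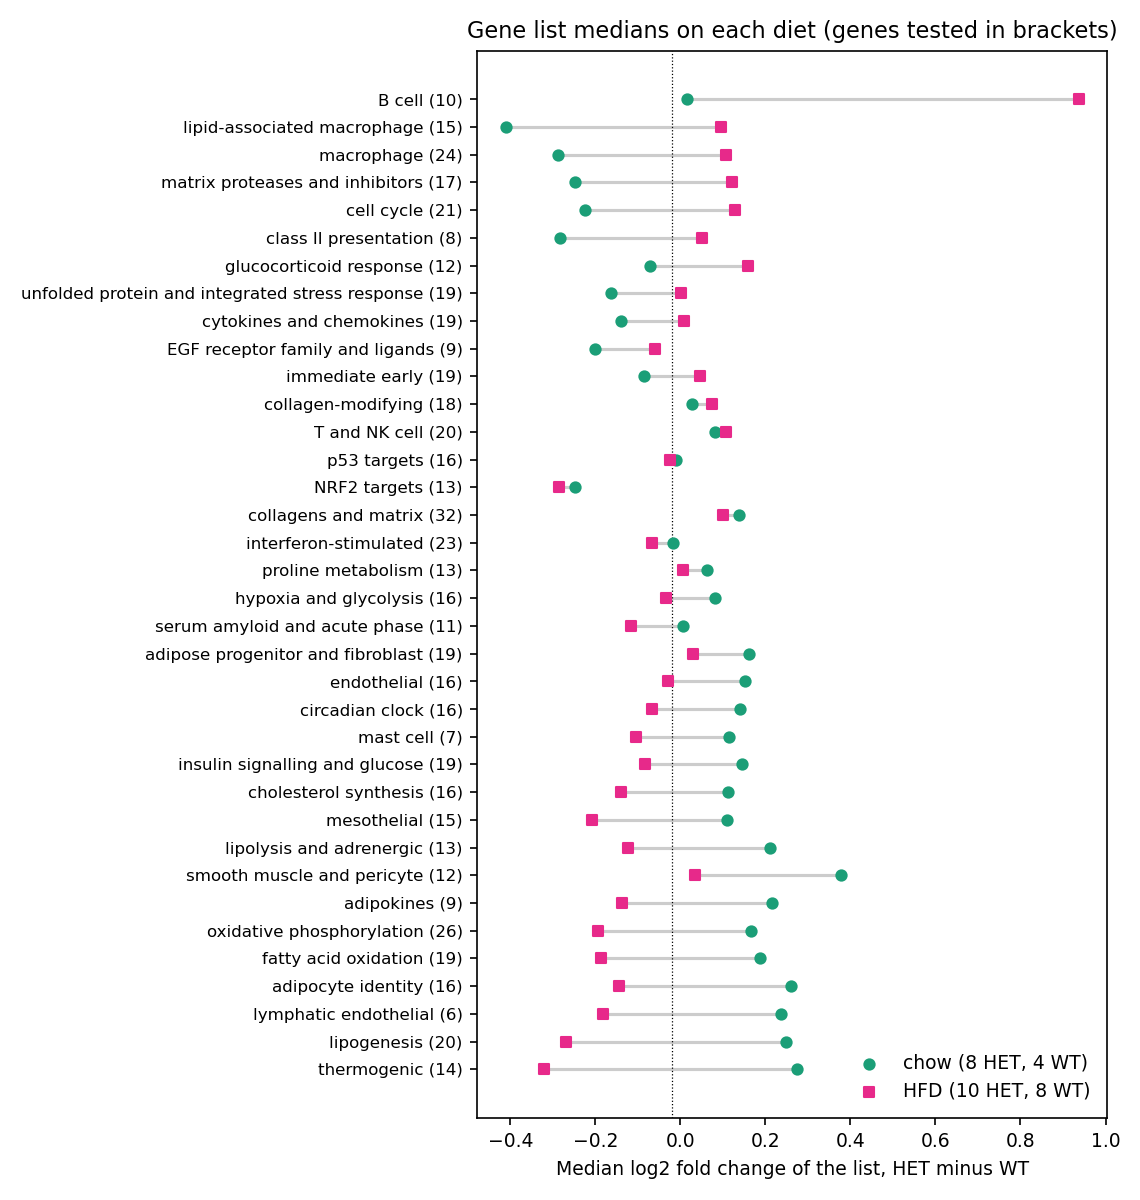
Median log2 fold change of HET against WT (x axis) for each gene list with at least 5 tested genes (y axis), on chow (green circles) and on HFD (pink squares). The dotted line is the median over all genes on chow. With all libraries, as drawn, metabolic lists such as adipocyte identity and lipogenesis have the chow point on the right and the HFD point on the left. Macrophage lists have the reverse.

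Among the genes with the smallest p for the difference between diets, none of which passed (edgeR adjusted p = 0.75), were Mnt, a repressor that partners MAX (log2 difference 0.45), and Atl2, which shapes the endoplasmic reticulum (-0.69). Cidea, a lipid droplet protein gene of the thermogenic list named after its values were seen, was at 4.66 ± 0.88 CPM in chow WT and 9.83 ± 6.05 in chow HET, but at 13.7 ± 11.4 in HFD WT and 5.19 ± 1.60 in HFD HET. The groups overlapped on both diets, and its highest library was HFD WT 6 at 32.2 CPM.

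For 5 genes among those with the smallest p in KO fat, the values in HET fat were closer to zero. They are given side by side because both use the same WT libraries, and were chosen after their values were seen. Picking genes by their p in KO favours KO values far from zero, so the contrast in size is a description only. Fcna, a ficolin of macrophages, had a KO log2 fold change of 1.37 ± 0.18 and a HET value of 0.15 ± 0.14. Sfrp4, a secreted inhibitor of Wnt signalling, had 2.004 ± 0.31 and 0.30 ± 0.24, and the serpin gene Serpinb2 3.26 ± 0.50 and 0.32 ± 0.36. Serpinb2 ran from 2.61 to 171 CPM in chow KO (median 19.8), and its HFD means were 2.39 CPM in KO and 1.05 in WT. The transcription factor gene Cux2 had -1.51 ± 0.22 and -0.10 ± 0.19, and the receptor gene Gpr39 1.51 ± 0.24 and -0.08 ± 0.19. None of these HET values reached an unadjusted p under 0.05, whereas Pepd (-2.13 ± 0.15 in KO, -0.61 ± 0.06 in HET) and Tshz3 did.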

How the data were processed

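Counts of reads per Ensembl gene were deposited by the authors as 1 table for each tissue, with no normalization, as whole numbers and unequal totals show. Stranded mRNA libraries were read single-end at 50 bases, per the labels' protocols. The submitters' processing notes name STAR 2.5.1b, featureCounts 1.5 and GRCm38.p5, without settings. Whether strand was used and which gene models were counted is not given in the sources used here. Reads of overlapping, antisense or near-identical genes may therefore have been split or lost. Symbols came from the GENCODE annotation of GRCm38 for 25723 of 25759 genes. Of the gonadal columns, 1 without a label was not used, and chow WT sample 1 was not analysed here.

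The 30 libraries were fitted in edgeR 4.0.16 (R 4.3.3) as diet plus genotype, with filterByExpr (minimum count 10, minimum total 15), TMM scaling and the quasi-likelihood test. Effects on each diet and their difference came from a fit with 1 mean per group. Tests were two-sided, p-values were adjusted by Benjamini-Hochberg over all genes tested, and calls were made at an adjusted p under 0.05. SE is the size of the log2 fold change divided by the square root of F. CPM uses TMM-scaled library sizes over the 30 libraries. Summed other-tissue markers, and Pepd and Tshz3 where KO is shown, were scaled over all 45 gonadal libraries. Per-length values divide by summed exon length. Each mouse gave 1 library per tissue, and no 2 libraries of a group agreed within sampling noise (107 pairs, chi-square per gene at least 6.26). Total counts limit precision for low genes, and p-values measure the spread between mice.

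A library was set aside for a tissue when its summed markers were over 5 times the median of the libraries and at least 100 CPM. The exact permutation test used log2(summed CPM + 1). The alternatives were DESeq2 1.42.0, RLE factors, other filters, all 6 gonadal groups, covariates, a replicate block, the left-out mouse and single libraries. The fits without testis RNA and the liver fit with the left-out mouse were added after seeing the data. The pipeline was tested on simulated data.

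Named genes were Pepd and other proline-specific peptidases, called genes, the genes with the smallest p up to 20, up to 2 members of each list described, and 3 genes for the difference between diets, of which 1 is not reported here. Predicted genes, unnamed IDs and genes that do not code for protein were left out of the ranking by p. The comparison and the gene lists were chosen with earlier results of these data known. Same-numbered mice of different groups did not deviate together (median correlation 0.04 over 33 pairs, over 0.1 in 11), so replicate numbers do not pair the samples.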

Additional observations from a re-analysis of the deposited data

Results flagged for a closer look

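In each group of 4, 8 or 10 libraries, the highest and the lowest library were compared with the others as the gap to the nearest library divided by the range of the group. Of 204 pairs of a group and a measure 32 (15.7%) passed Dixon's 95% critical value, where chance passes about 1 in 20. Many measures share RNA of 1 tissue and are not independent, and the testis genes were named for small p-values that these libraries shape, so that chance rate does not hold for them.

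HFD WT 2 accounted for 19, each time as the highest library. For testis genes the ratio was 1.0 for Kif2b, Actl7a, Gykl1 and Ropn1, 0.931 for Spesp1, 0.883 for Aldoart2, 0.879 for Ldhc, 0.869 for Mroh4, 0.828 for Spata21, 0.813 for Akap4, 0.794 for Selenov, 0.793 for Akap3, 0.783 for Tex33, 0.78 for Cntnap2 and 0.736 for Tssk1. For muscle it was 0.811 for Tnnt3 and for Tnni2 and 0.723 for the summed markers. It was 0.621 for the regulatory T cell gene Foxp3.

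HFD HET 6 was highest for Mroh4 and Spesp1 (1.0 each, where it had 0.17 CPM, about 1 read, and every other library of its group 0), Ldhc (0.642) and Akap4 (0.547), the HET library on HFD with the most testis marker RNA, and HFD HET 1 was lowest for Akap3 (0.505). Chow HET 2 was highest for summed epididymis markers (0.62), summed muscle markers (0.609) and Tex33 (0.547). HFD WT 6, with the most hepatocyte RNA, was highest for Acaa2 (0.661) and Mlxipl (0.618), genes that liver also expresses. HFD WT 5 was highest for Adamts1 (0.57), HFD HET 7 for summed muscle markers (0.557), and HFD HET 11 was lowest for Aif1 (0.472). None of the 32 was for Pepd, Tshz3 or Dusp8. The part of these libraries in the pooled values was not tested beyond leaving each out.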

How the results depend on the processing

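Pepd stayed lower in HET under all 46 settings (log2 -0.67 to -0.57) and was called in 45. In all but the setting with the left-out mouse put back (log2 -0.67, adjusted p = 0.0094), the libraries were selected on Pepd, so these calls are a description. It lost its call in the fit of all 6 gonadal groups (adjusted p = 0.22), which gave 0 called genes for HET against WT, diets pooled, with 523 at an unadjusted p under 0.05. DESeq2 gave 7 and no filter on low counts 42 (1 higher, 41 lower). Leaving out single libraries gave 1 in each case. With the replicate block, for numbers that do not pair the samples, 1 gene was called, Pepd (adjusted p = 0.00039). On chow, DESeq2 gave 6 (Pepd among them), the set without epididymis, muscle or liver RNA 1 (Pepd) and that without testis RNA 2 (Pepd and Zfp658). Leaving out 1 chow library gave 0 to 290. The 290 came without HET 2, with 285 lower and 218 of the 290 with over 50% of their summed chow CPM in WT 2 and HET 2, as against 644 of 14080 genes tested (4.57%); without WT 2 only Pepd was called. On HFD, DESeq2 gave 2, and the left-out mouse put back gave 0. For the difference between diets DESeq2 gave 1, Ccdc153.

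Some values that did not pass changed sign. With epididymis libraries left out the log2 fold change was 0.021 for Dpp4, 0.12 for Rbp4 and 0.070 for Prodh. With muscle and liver libraries left out too, it was 0.010 for Dpp4, 0.045 for Rbp4, 0.26 for Cidea, 0.048 for Prodh and 0.089 for Gsta4, and with testis libraries added, 0.065 for Cidea and 0.015 for Slc2a1. Tnnt3 came to 0.12 with DESeq2, 0.059 without the muscle library, 0.17 without testis libraries and 0.064 with other-tissue sums as covariates, and Tnni2 to 0.074, 0.16 (testis) and 0.0051 (covariates). Over single libraries left out, Cfd ran from -0.66 to 0.055, and the log2 fold change of Tnnt3 from -2.62 to 0.059. The cause was not tested. Low genes, such as those of testis, are limited by depth.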

Other observations

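Other cell types and programmes of the fat pad, not described above, also had 0 members called by edgeR or DESeq2 and 0 at an unadjusted p under 0.05 with the diets pooled. Over all 14235 genes, 4987 were above zero and 9248 below. Of 16 endothelial genes 11 were above zero (median log2 fold change 0.05), and all 16 intervals lay within 1.5-fold. Of 12 smooth muscle and pericyte genes 11 were above zero (median 0.11, chow 0.38, HFD 0.03). The 15 mesothelial genes had a median of -0.02 and ranged from -0.92 to 0.15. The EGF receptor family and its ligands, listed because extracellular prolidase has been described as a ligand of these receptors, had 9 genes tested, 7 of them below zero (median -0.25), and 4 of the 9 intervals lay within 1.5-fold. Cell cycle genes had a median of 0.03 over 21 genes, with 3 above zero on chow and 20 on HFD. Without the libraries with testis RNA, 11 were above zero on chow and 21 on HFD. Cholesterol synthesis genes were below zero in 15 of 16 (median -0.07), with 14 above zero on chow and 0 on HFD.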
